A study of Drosophila melanogaster with 8 samples.

Results

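The genes described here encode 3 families of ion channels of the fruit fly Drosophila melanogaster: the bestrophins Best1, Best2, Best3 and Best4, the ClC genes ClC-a, ClC-b and ClC-c, and the inward rectifier potassium channels Irk1, Irk2 and Irk3. They were taken by name, and all 10 were found among the 13918 genes of the deposited expression table. RNA from whole Canton-S pupae, a wild-type strain, was sequenced at stage P6, early in the pupal period. One set of animals developed at 3 g, a raised gravity called hypergravity, while control animals developed at 1 g, the gravity of the ground. Each group had 4 libraries of polyadenylated RNA, each from a pool of 4 whole pupae. All were grown at 25 °C, and the sex of the pupae was not given in the labels. The question, as the series' title puts it in substance, is what hypergravity during development does to pupal gene expression.

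Bestrophins are chloride channels of the cell membrane, and those studied best are opened by calcium inside the cell. In cultured Drosophila cells Best1 carries a chloride current that responds to calcium and to cell swelling. The ClC family holds both chloride channels of the cell surface, to which ClC-a belongs, and chloride and proton exchangers of endosomes and lysosomes, the class to which ClC-b and ClC-c are related. Inward rectifiers pass potassium more easily into than out of cells. In the fly, Irk channels and ClC-a are known for their part in fluid secretion by the Malpighian tubules, the renal organs of insects, ClC-a is also known from glia, and Irk2 is known for a part in wing patterning.

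Levels are given in transcripts per 1000000 (TPM), a share of each library that is scaled by transcript length, so that levels of different genes can be set side by side. Each library adds up to 1000000 TPM whatever its number of reads, so the depth behind a value is unknown. The 8 libraries correlated with the others of their group at a mean of 0.881 (3 g replicate 2) to 0.961 (control replicate 3) across genes. Markers of other tissues and stages moved between the groups. All 13 tested salivary gland and early prepupal genes were higher at 3 g, with a summed level of 13330 to 32280 TPM at 3 g and 86.8 to 456 TPM in controls. Of 11 muscle markers 9 were lower (1 without control replicate 2, and 4 or 5 without control replicate 3 or any pool at 3 g), with sums of 1292 to 2080 TPM at 3 g and 3963 to 14740 TPM in controls. The part of these differences in the results on channels was not tested. In whole animals, fewer cells of a type and less RNA per cell cannot be told apart.

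All 10 genes averaged above the 1 TPM over 8 libraries that a test required. Of them 3 were higher at 3 g, 1 from each family: Best2, ClC-a and Irk2. None was lower, and 7 did not pass (limma, adjusted p under 0.05 over the 12044 genes tested). Among all genes tested, 2.23% were higher and 2.06% lower by the same rule. At an unadjusted p under 0.05, 5 of the 10 were higher, Irk1 and ClC-c being added, and 0 lower, against 8.58% higher and 7.68% lower of all genes tested. For the same 5 genes every pool at 3 g lay above every control pool, which held for 6.49% of all genes, and for 0 of the 10 did every pool at 3 g lie below, which held for 6.00%. The median log2 fold change of the 10 was 0.29, beside -0.02 for all genes tested. The 10 genes were chosen with earlier results of these data known, so these shares are not an independent comparison. The count of 3 was not kept by every set of libraries: it was 0 without 3 g replicate 2 or without control replicate 2, 3 or 4, 1 without 3 g replicate 1 or 4, and 3 without 3 g replicate 3 or control replicate 1. It was also 0 without both 3 g replicate 2 and control replicate 4, the libraries least like the others of their group, with 4 of the 10 at an unadjusted p under 0.05 (limma). The number called among all genes fell as well. It was 516 with every library, 275 without 3 g replicate 2, and 162, 206 and 383 without control replicate 2, 3 and 4. Without 3 g replicate 1 or 4 it was 446 or 335, and without both libraries named above 228.

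**Figure D1:**
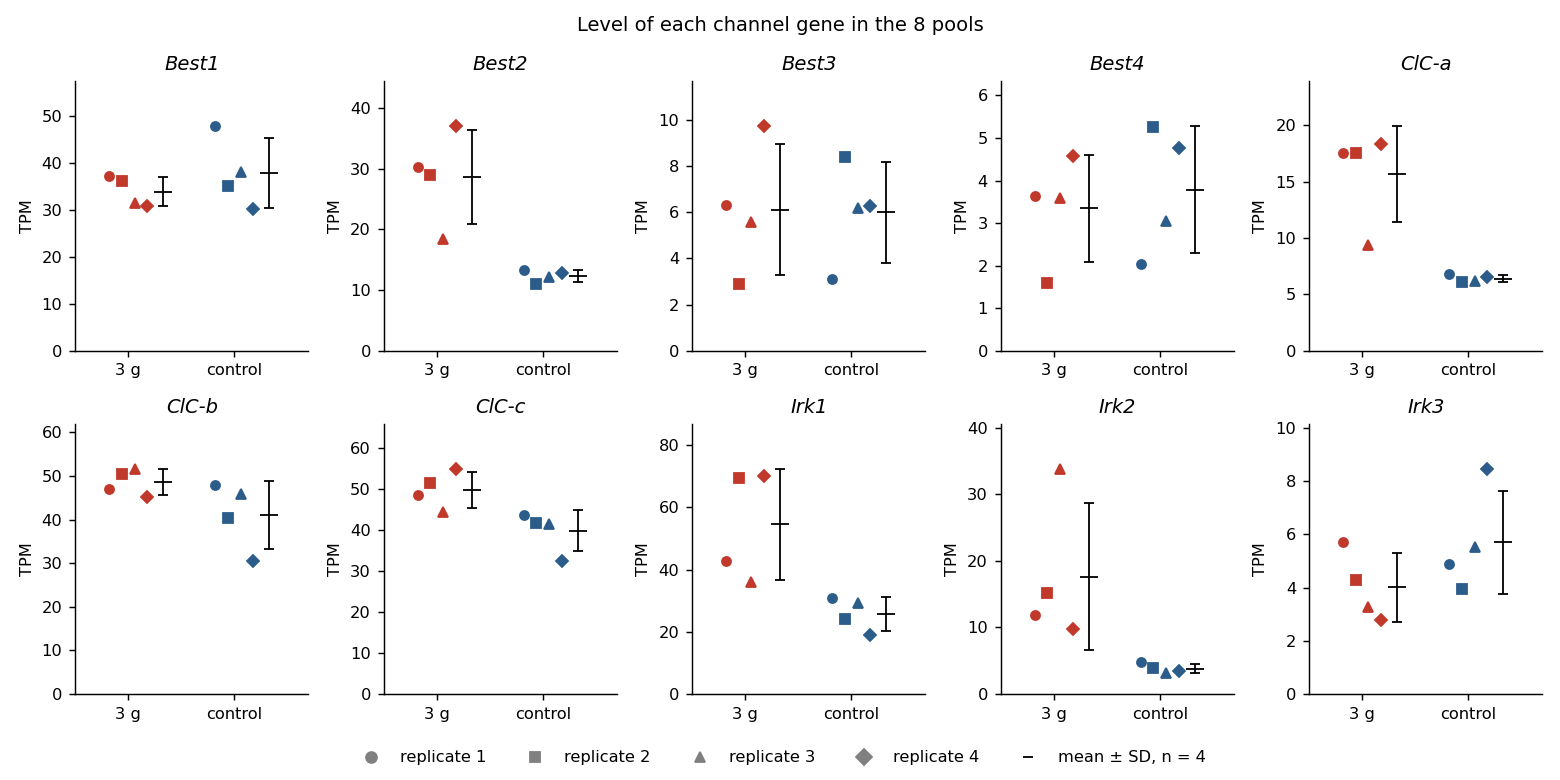
Level in TPM (vertical axis, each panel from 0) of each channel gene in the 4 pools at 3 g (red) and the 4 control pools (blue), with mean ± SD beside each group. In Best2, ClC-a, ClC-c, Irk1 and Irk2 every red point lies above every blue one, while the groups overlap in the other 5 genes.

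Among the bestrophins only Best2 passed the test. Best2 stood at 30.4, 29.0, 18.4 and 37.1 TPM in the 4 pools at 3 g, against 13.4, 10.98, 12.2 and 12.9 TPM in the 4 controls. The lowest pool at 3 g, replicate 3, was still above the highest control, and the controls lay close together. The means were 28.7 ± 7.74 TPM at 3 g and 12.4 ± 1.04 TPM in controls (SD, n = 4 each). On the log2(TPM + 0.5) scale, which understates the change of low genes, the difference was 1.15 ± 0.21 (SE, adjusted p = 0.0256, limma), that is 2.21-fold with a 95% interval of 1.58 to 3.09. With any 1 library left out it was 1.01 to 1.34, and it passed in 2 of these 8 fits, those without 3 g replicate 3 or control replicate 1. With both 3 g replicate 2 and control replicate 4 left out it did not pass. Of the genes beside Best2 on the chromosome, the transporter gene Mdr65 averaged 9.90 ± 1.96 TPM at 3 g and 13.6 ± 0.445 TPM in controls (SD, n = 4 each) and did not pass, and CG10163 was below 0.5 TPM in every library and was not tested.

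Best1 was the bestrophin with the highest mean in both groups. It stood at 37.1, 36.1, 31.5 and 30.8 TPM at 3 g, against 47.9, 35.0, 38.0 and 30.2 TPM in controls. The groups overlapped throughout, and the log2 difference of -0.14 ± 0.16 (SE, adjusted p = 0.735, limma) had a 95% interval of -0.51 to 0.23. Best2 differed between the groups and Best1 did not pass, and the difference between these genes was itself tested through the ratio of their TPM + 0.5 within each library. The log2 ratio of Best1 to Best2 averaged 0.27 ± 0.42 at 3 g and 1.56 ± 0.25 in controls, without overlap (SD, n = 4 each, exact two-sided permutation p = 0.0286, the smallest that 4 against 4 allow, and 0.0857 adjusted over the 12 pairs of genes within a family). That is, Best2 made up 31.1% to 45.1% of the summed bestrophin TPM of a library at 3 g and 18.4% to 23.8% of it in controls.

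Best3 and Best4 lie beside each other, and in the Ensembl annotation used here they overlap on opposite strands. No label or header says whether counting used strand, so reads from the overlap cannot be told apart. Both genes were low and variable. Best3 stood at 6.29, 2.87, 5.56 and 9.73 TPM at 3 g, against 3.10, 8.38, 6.19 and 6.27 TPM in controls. Best4 stood at 3.63, 1.60, 3.59 and 4.58 TPM at 3 g, against 2.05, 5.27, 3.06 and 4.77 TPM in controls. In both genes the lowest library was 3 g replicate 2 and the next was control replicate 1, one in each group, and the groups overlapped widely. The log2 differences were -0.01 ± 0.39 for Best3 (adjusted p = 0.995) and -0.15 ± 0.36 for Best4 (adjusted p = 0.868, SE, limma), and both lay above 0 without 3 g replicate 2 (0.28 and 0.11). Their 95% intervals, -0.90 to 0.89 and -0.98 to 0.67, correspond to 0.54-fold to 1.85-fold for Best3 and 0.51-fold to 1.59-fold for Best4. The ratio of Best3 to Best4 varied far less than either level, with a log2 ratio of 0.74 ± 0.19 at 3 g and 0.60 ± 0.23 in controls (SD, n = 4 each, exact two-sided permutation p = 0.371, adjusted 0.495).

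The same libraries stood apart in the markers of the male germline. The summed level of 16 such markers, which include the don juan gene dj, the testis tubulin gene betaTub85D and the sperm protein genes of the Mst84D group, was 5887, 989, 5467 and 5539 TPM at 3 g, against 3706, 7851, 5883 and 8368 TPM in controls. The lowest sum was that of 3 g replicate 2 and the next that of control replicate 1, the order also seen in Best3 and Best4. None of the 16 passed the test between the groups (limma, 0 at an unadjusted p under 0.05), and no marker was at 0 in every library. Leaving out both these libraries was a choice made once the values were known; the log2 difference was then 0.02 for Best3 and -0.11 for Best4. The part of the male germline in the levels of Best3 and Best4 was not tested.

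**Figure D2:**
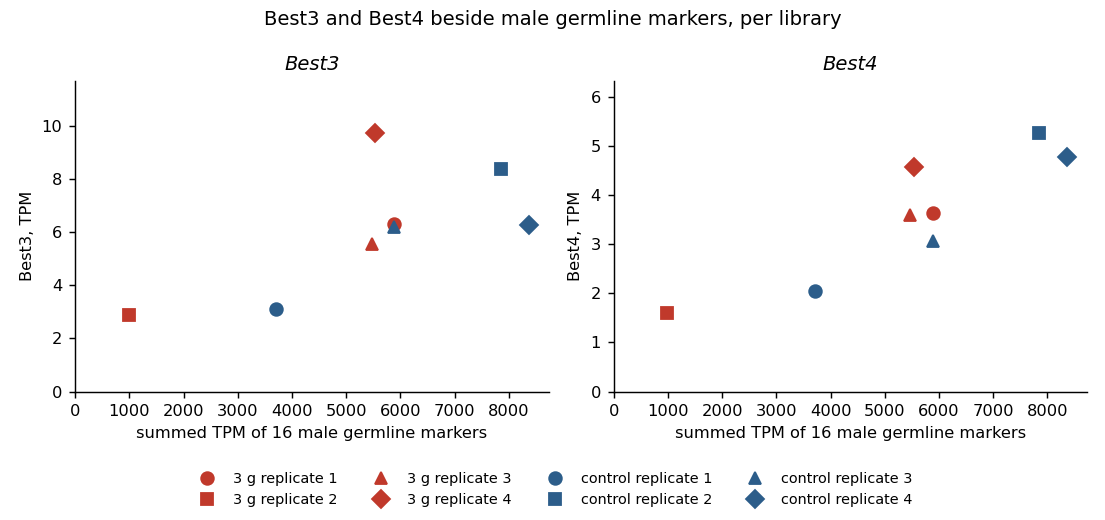
Level of Best3 (left) and Best4 (right) in TPM against the summed TPM of 16 male germline markers, 1 point per library, 3 g in red and control in blue, both axes from 0. The libraries with the lowest marker sums, 3 g replicate 2 at 989 TPM and control replicate 1 at 3706 TPM, have the lowest levels of both genes.

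Of the ClC genes, ClC-a, the channel of the cell surface, passed the test. It stood at 17.5, 17.6, 9.35 and 18.3 TPM at 3 g, against 6.80, 6.13, 6.15 and 6.55 TPM in controls. The controls lay close together, whereas at 3 g replicate 3 stood well below the other pools, though above every control. Means were 15.7 ± 4.25 TPM at 3 g and 6.41 ± 0.325 TPM in controls (SD, n = 4 each). The log2 difference was 1.18 ± 0.22 (SE, adjusted p = 0.0261, limma), or 2.27-fold with a 95% interval of 1.60 to 3.22. It ranged from 1.10 to 1.41 with 1 library left out, and passed in 2 of the 8 fits, again those without 3 g replicate 3 or control replicate 1. It did not pass after quantile normalization or with both 3 g replicate 2 and control replicate 4 left out. The neighbouring genes Sbf (17.9 ± 2.50 against 17.5 ± 1.88 TPM, 3 g against control, n = 4 each) and glo (119 ± 8.17 against 113 ± 23.0 TPM) did not pass.

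ClC-b and ClC-c, the relatives of the exchangers of endosomes and lysosomes, were several times more abundant than ClC-a in both groups, and neither passed the test. ClC-c stood at 48.4, 51.5, 44.3 and 54.8 TPM at 3 g, against 43.7, 41.7, 41.5 and 32.4 TPM in controls. These groups did not overlap, by a narrow margin, and the log2 difference of 0.32 ± 0.13 (SE, 95% interval 0.01 to 0.63) did not pass (adjusted p = 0.282, limma). ClC-b stood at 47.0, 50.4, 51.6 and 45.2 TPM at 3 g, against 47.9, 40.4, 45.8 and 30.5 TPM in controls, with a log2 difference of 0.25 ± 0.16 (SE, adjusted p = 0.54, limma). In both, control replicate 4 was the lowest library, and the other controls lay near or within the range at 3 g. In the annotation ClC-b overlaps Sin3A and ClC-c overlaps CG13074, each on the opposite strand. Sin3A was at 44.7 to 56.9 TPM at 3 g and 38.6 to 61.4 TPM in controls, and CG13074 below 2 TPM throughout.

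The log2 ratio of ClC-b to ClC-c was near 0 in both groups and overlapped between them, at -0.03 ± 0.20 at 3 g and 0.03 ± 0.12 in controls (SD, n = 4 each, exact two-sided permutation p = 0.657). The log2 ratio of ClC-a to ClC-c averaged -1.68 ± 0.34 at 3 g and -2.54 ± 0.21 in controls, without overlap (exact two-sided permutation p = 0.0286, adjusted 0.0857, n = 4 each). That of ClC-a to ClC-b overlapped between the groups (-1.64 ± 0.51 at 3 g and -2.57 ± 0.30 in controls, exact p = 0.0571, adjusted 0.114, n = 4 each). As a share, ClC-a made up 15.5%, 14.7%, 8.89% and 15.5% of the summed ClC level at 3 g and 6.59% to 9.43% in controls, where control replicate 4 was the highest.

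**Figure D3:**
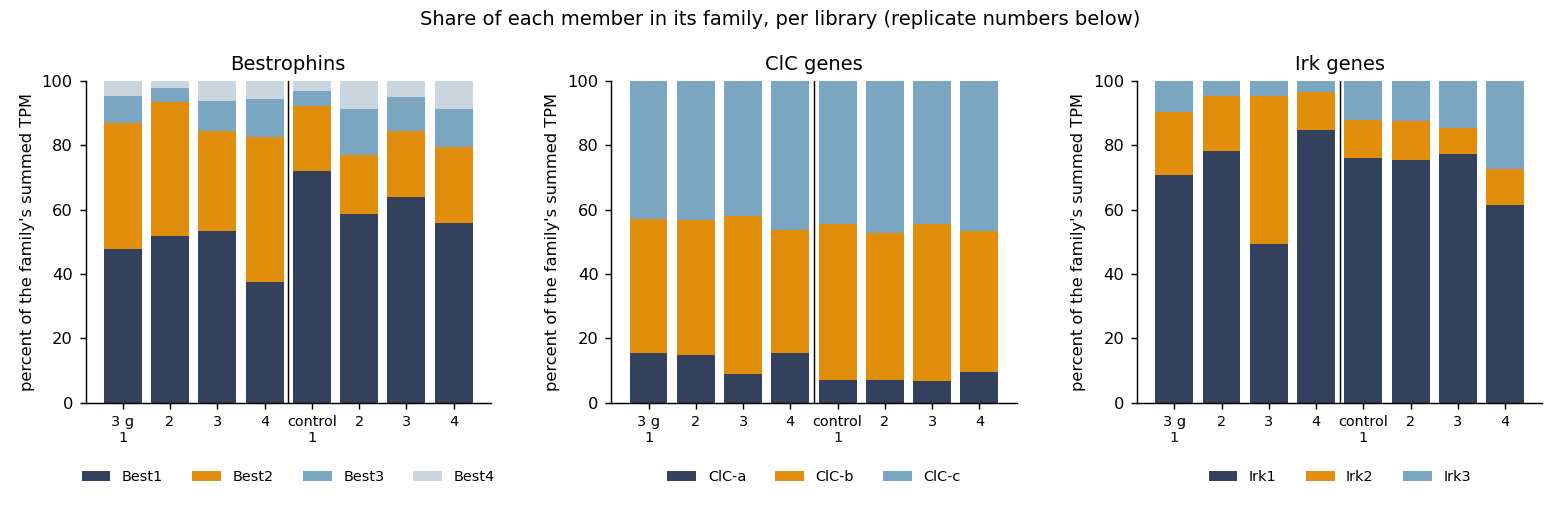
Percent of its family's summed TPM taken by each gene, 1 bar per library, with the 4 pools at 3 g left of the line and the 4 controls right of it. Best2 takes 31.1% to 45.1% of the bestrophin sum at 3 g and 18.4% to 23.8% in controls, and Irk2 takes 46.3% of the Irk sum in 3 g replicate 3, against 8.21% to 19.6% in the other libraries.

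Of the Irk genes, Irk2 passed the test. It had the largest fold change of the 10 genes, with 256 of the 12044 tested genes above it. It stood at 11.8, 15.2, 33.8 and 9.74 TPM at 3 g, against 4.78, 3.91, 3.11 and 3.44 TPM in controls. The lowest pool at 3 g lay well above the highest control, and replicate 3, the lowest pool at 3 g for Best2, ClC-a and Irk1, was the highest for Irk2. The means were 17.6 ± 10.98 TPM at 3 g and 3.81 ± 0.725 TPM in controls (SD, n = 4 each), and the log2 difference was 1.92 ± 0.36 (SE, adjusted p = 0.0276, limma), or 3.78-fold with a 95% interval of 2.12 to 6.74. Leaving out 1 library gave 1.56 to 2.14 and left it past the threshold in 4 of 8 fits, those without 3 g replicate 1, 3 or 4 or control replicate 1. It did not pass with both 3 g replicate 2 and control replicate 4 left out. The gene CG10177 beside it varied with the male germline markers, with its lowest level, 11.9 TPM, in 3 g replicate 2, and did not pass (46.0 ± 22.8 TPM at 3 g and 55.5 ± 15.9 TPM in controls, n = 4 each).

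Irk1 had the highest mean of the 10 genes at 3 g, though in replicates 1 and 3 it lay below ClC-b and ClC-c. It stood at 42.8, 69.4, 35.9 and 70.05 TPM at 3 g, against 30.9, 24.0, 29.2 and 18.9 TPM in controls. The groups did not overlap, but at 3 g the pools fell widely apart, and the log2 difference of 1.03 ± 0.27 (SE, 95% interval 0.42 to 1.65) did not pass (adjusted p = 0.0757, limma). Without any 1 library its adjusted p was 0.056 to 0.212. In the annotation Irk1 overlaps cnc on the opposite strand and CG46310, which was not measured apart, on its own strand. cnc was at 42.5 to 53.2 TPM at 3 g and 39.0 to 47.7 TPM in controls, and its log2 difference was 0.09 (adjusted p = 0.78, limma).

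Irk3 had a lower mean at 3 g and did not pass the test. It stood at 5.70, 4.27, 3.27 and 2.78 TPM at 3 g, against 4.88, 3.95, 5.54 and 8.45 TPM in controls. The groups overlapped, with control replicate 4 the highest library, and the log2 difference was -0.46 ± 0.28 (SE, adjusted p = 0.527, limma). In the annotation Irk3 overlaps Grip71 on the opposite strand, which averaged 11.8 ± 3.42 TPM at 3 g and 10.99 ± 2.04 TPM in controls (SD, n = 4 each) and did not pass. The gene CG10348 beside Irk3 fell, with 9.80 ± 2.58 TPM at 3 g and 20.5 ± 3.99 TPM in controls (SD, n = 4 each, log2 difference -1.05, adjusted p = 0.0412, limma). Among the tested genes beside or overlapping the 10 channel genes, only CG10348 passed. Of all genes tested, 2.23% were higher and 2.06% lower. With 1 library left out CG10348 passed in 1 of 8 fits, that without 3 g replicate 4. Faf2, also beside Irk3, and ATPsynbetaL, beside ClC-c, were not measured under these names. The ratios of Irk3 to the other Irk genes separated the groups. The log2 ratio of Irk2 to Irk3 averaged 1.88 ± 0.93 at 3 g and -0.49 ± 0.57 in controls, and that of Irk1 to Irk3 3.59 ± 0.71 at 3 g and 2.11 ± 0.67 in controls (SD, n = 4 each, exact two-sided permutation p = 0.0286 each, adjusted 0.0857). The ratio of Irk1 to Irk2 overlapped between the groups (exact p = 0.171, adjusted 0.257), at 1.81, 2.16, 0.09 and 2.78 at 3 g and 2.30 to 3.04 in controls. The lowest value was that of 3 g replicate 3, which had nearly as much Irk2 as Irk1, and only 3 g replicate 4 lay within the control range. Of the 12 pairs within the families, 4 had the smallest possible p and 0 passed the adjusted threshold. These 4 could get no smaller p from 4 against 4 pools and still stood at 0.0857 once adjusted (exact permutation). The 0 therefore does not show that the ratios were alike in the groups. The summed level of the Irk genes was 60.3 to 88.8 TPM at 3 g and 30.8 to 40.5 TPM in controls, and that of the ClC genes 105 to 120 TPM at 3 g and 69.4 to 98.5 TPM in controls. The bestrophin sum, at 59.0 to 82.2 TPM at 3 g and 54.1 to 66.4 TPM in controls, overlapped.

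**Figure D4:**
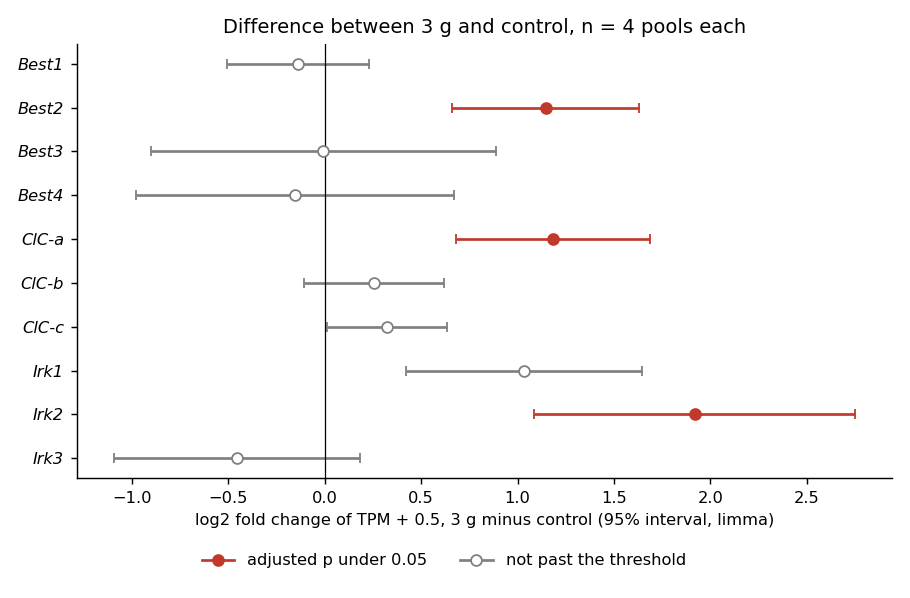
Log2 fold change of TPM + 0.5, 3 g minus control, with its 95% interval from limma, for each gene (n = 4 pools per group). Best2, ClC-a and Irk2, in red, are past an adjusted p of 0.05, and Irk1 at 1.03 is not.

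The order of levels differed between the groups. At 3 g Irk1, ClC-c and ClC-b led with means of 54.5, 49.8 and 48.5 TPM, and their ranges overlapped. They were followed by Best1 (33.9 TPM), Best2 (28.7), Irk2 (17.6) and ClC-a (15.7), neighbours whose ranges overlapped each time, while Best1 lay below ClC-b without overlap. Best3, Irk3 and Best4 came last, at 6.11, 4.01 and 3.35 TPM. In controls ClC-b, ClC-c and Best1 led with 41.1, 39.8 and 37.8 TPM and overlapping ranges, before Irk1 with 25.8 TPM. Best2 at 12.4 TPM was apart from its neighbours on both sides, and ClC-a, Best3, Irk3, Irk2 and Best4 formed a low group of 6.41 to 3.79 TPM with overlapping neighbours. Among all genes listed, Irk2 lay at the 50.1 percentile of mean level at 3 g and the 23.7 percentile in controls, and Best2 at 63.4 and 41.3.

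Best2 and ClC-a, genes of unrelated channel families on different chromosome arms, had almost the same pattern over the 8 libraries. Likeness was measured as the root mean square difference between log2(TPM + 0.5) profiles, each centred on its own mean, over the 10280 genes averaging 5 TPM or more. By this measure ClC-a was the nearest gene to Best2 and Best2 the nearest to ClC-a, at 0.0951. The next nearest to Best2 were CG5391 (0.199) and the hemocyte receptor gene Sr-CI (0.223), and the next nearest to ClC-a were Chd64 (0.223) and CG31098 (0.227). Irk1 was 25th nearest to each of them, at 0.279 to Best2 and 0.289 to ClC-a. The nearest to Irk2 were CG4500 (0.326), CG10131 (0.335) and CG1213 (0.339), all highest in 3 g replicate 3, at 240, 43.5 and 59.3 TPM. These likenesses include the difference between the groups, and they are a description of 8 libraries.

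**Figure D5:**
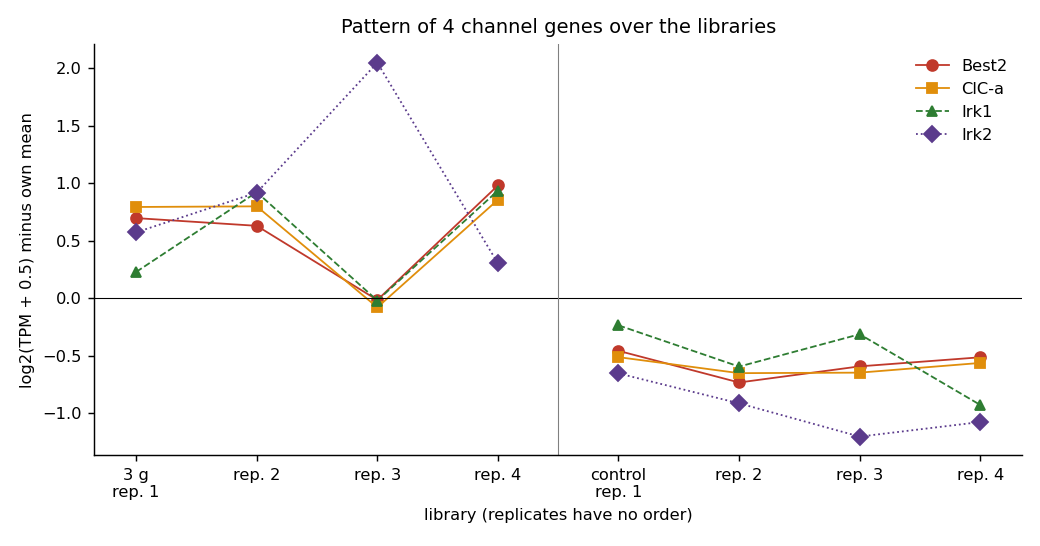
Log2(TPM + 0.5) of Best2, ClC-a, Irk1 and Irk2 minus each gene's own mean, in the 4 pools at 3 g (left) and the 4 controls (right); replicates have no order and the lines only join points of 1 gene. Best2 and ClC-a run together at a root mean square difference of 0.0951, and 3 g replicate 3 is low for both and for Irk1 but high for Irk2.

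Other genes of ion transport were counted in fixed lists. Beside these counts, 2.23% of all genes tested were higher and 2.06% lower (limma, adjusted p under 0.05). At an unadjusted p under 0.05 the shares were 8.58% and 7.68%. Of 15 genes of the sodium pump and of cation and chloride cotransport, 3 were higher and 1 lower (median log2 difference 0.13). Higher at 3 g were Nha1, a gene of the sodium and proton antiporter family (25.7 ± 6.89 TPM at 3 g and 3.37 ± 0.888 TPM in controls, n = 4 each, adjusted p = 8.17e-04, limma), the cotransporter CG31547, named NKCC in RefSeq (34.4 ± 18.6 and 7.02 ± 0.841 TPM, adjusted p = 0.0137), and the sodium, potassium and chloride cotransporter Ncc69 (34.4 ± 4.44 and 20.9 ± 1.88 TPM, adjusted p = 0.0283). Nha1 passed without any 1 library, CG31547 in all such fits but that without control replicate 2, and Ncc69 in 2 of 8, those without 3 g replicate 3 or control replicate 1. The gene that fell was nrv3, a subunit of the sodium pump, named here after its values were seen (60.3 ± 10.3 TPM at 3 g and 115 ± 26.3 TPM in controls, n = 4 each, adjusted p = 0.0358, limma). With 1 library left out nrv3 passed in 2 of 8 fits, those without 3 g replicate 1 or control replicate 4. Of 12 tested genes of other anion channels 1 was higher and 1 lower (median -0.01). CG7589, named SecCl in RefSeq and a member of the ligand-gated chloride channels, stood at 3.73, 2.86, 11.7 and 4.56 TPM at 3 g and at 0.30 to 0.82 TPM in controls (adjusted p = 0.0192, limma). Like Irk2 it was highest in 3 g replicate 3, and it did not pass without control replicate 2, 3 or 4. The proton-sensitive chloride channel gene pHCl fell, with 2.57 ± 0.513 TPM at 3 g and 5.62 ± 1.04 TPM in controls (n = 4 each, adjusted p = 0.0263, limma), and did not pass without 3 g replicate 2, 3 or 4 or control replicate 2 or 3. Without 3 g replicate 1, 3 genes of the anion channel list were lower. Of 12 genes for potassium leak channels or for Sur, a sulfonylurea receptor, 1 was higher and 0 lower (median -0.05): CG43155, a potassium leak channel, with 8.29 ± 2.23 TPM at 3 g and 1.14 ± 0.194 TPM in controls (adjusted p = 0.00134, limma), which passed without any 1 library; 3 of the list were higher without 3 g replicate 3. Of 14 genes of endosomes and lysosomes, the compartments of the ClC-b and ClC-c class, 0 passed (limma; 4 were higher at an unadjusted p under 0.05 and 0 lower), and 1 was higher without 3 g replicate 3. The first of them was Trpml, a cation channel of lysosomes, at 15.5 ± 1.71 TPM at 3 g and 10.7 ± 1.03 TPM in controls (adjusted p = 0.0693).

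Markers of tissues in which these channels are known were also read. Their counts stand beside the same shares of all genes tested, 2.23% higher and 2.06% lower, or 8.58% and 7.68% unadjusted (limma). Of 8 tested Malpighian tubule markers 0 passed (limma), and 2, CG7777 and tsh, were higher at an unadjusted p under 0.05. The sum of all 10 was 254 to 291 TPM at 3 g and 183 to 268 TPM in controls, with none at 0 in every library. Most of it was CG7777 (mean 101 TPM at 3 g against 72.0 TPM in controls), CG4019 (66.6 against 77.2), Drip (48.4 against 23.6) and tsh (36.3 against 27.1). The tubule genes Uro and CapaR were below 1 TPM in every library. Of 7 glia markers 0 passed (limma, 2 lower at an unadjusted p under 0.05), with sums of 179 to 276 TPM at 3 g and 182 to 284 TPM in controls. Gs2, the largest part of these sums, had a higher mean at 3 g (134 against 92.9 TPM). The 2 lower genes were alrm (11.9 against 34.7 TPM) and Eaat1 (21.2 against 33.8 TPM), so the sums hide moves in both directions. Control replicate 4 raised both control means. It stood at 70.5 TPM for alrm and 48.85 TPM for Eaat1, beside 19.1 to 26.1 and 27.7 to 29.8 TPM in the other controls. Hemocyte markers had 1 of 4 higher, Sr-CI. Their sum was 64.2 to 92.0 TPM at 3 g and 43.1 to 56.4 TPM in controls, without overlap. Most of it was Sr-CI, which averaged 63.75 TPM at 3 g and 31.4 TPM in controls. NimC1 also had a higher mean at 3 g (15.0 against 9.6 TPM). Hml (1.2 against 1.6 TPM) and eater (1.1 against 5.3 TPM) had lower ones. For eater the control mean was raised by replicate 4 at 14.9 TPM, beside 1.57 to 2.75 TPM in the other controls. The groups overlapped. At 3 g the lowest sum was in replicate 3, the lowest pool for Best2, ClC-a and Irk1. Sr-CI was named above for its likeness to Best2, so this order is no separate observation. Sr-CI and NimC1 were lowest at 3 g in that pool, while Hml and eater were not. Replicate 3 also had the lowest sum at 3 g in the muscle (1292 TPM) and neuron lists (120 TPM). The same held for the sodium pump, potassium leak and endosome lists. Trachea markers summed to 935 to 2687 TPM at 3 g and 543 to 932 TPM in controls, and again replicate 3 was the lowest at 3 g. Of the 4, 0 passed the threshold (limma), and 2, verm and serp, were higher at an unadjusted p under 0.05. These 2 made up nearly all of the sum, with means of 1111 and 608 TPM at 3 g and 540 and 242 TPM in controls. The other markers, trh and btl, differed little, at 12.2 and 6.94 TPM at 3 g and 10.7 and 5.89 TPM in controls. In the fat body list 2 of 6 were higher (Fbp1 and Lsp1gamma), and 5 at an unadjusted p under 0.05 (limma). Its sum was 5903 to 18520 TPM at 3 g and 1719 to 3503 TPM in controls. In the neuron list 2 of 7 were lower (Snap25 and para), and 3 unadjusted. Its sum was 120 to 177 TPM at 3 g and 179 to 194 TPM in controls. The count of 2 was 0 when any pool at 3 g but replicate 1 was left out, or control replicate 2 or 3. In the photoreceptor list 1 of 7 was lower (chp), and 4 unadjusted. Its sum was 37.2 to 48.7 TPM at 3 g and 89.15 to 343 TPM in controls. The count of 1 was 0 without control replicate 2 or 3 or any pool at 3 g but replicate 3, and 2 without control replicate 1 or 4. In the gut list 0 of 4 changed (limma, 0 at an unadjusted p under 0.05). The part of any of these tissues in the levels of the channel genes was not tested.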

How the data were processed

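The deposited table holds 1 whole number per gene and library, treated as a score and read as TPM multiplied by 100 and rounded by the authors, since the table's name says normalized TPM and each library sums to 1000000 after division by 100. The submitters' processing notes name CASAVA, DESeq, eXpress 1.5.1, Bowtie2 2.1.0 and Trimmomatic 0.30. Their roles, the genome build, the annotation and the strand setting were not given, so no coordinates are printed. Names, neighbours and overlaps come from Ensembl and RefSeq annotations of the current assembly. No sequences are shown.

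With limma 3.58.1 (R 4.3.3), log2(TPM + 0.5) was modelled on the group with an intensity trend for the 12044 genes averaging 1 TPM or more, and p-values were adjusted by Benjamini and Hochberg over all of them; the model was tested on simulated data. TPM keeps no depth, so no counting interval is given. Ratios of 2 genes of a family were tested by exact two-sided permutation (scipy 1.17.1). The labels do not say whether pools were raised separately, and p-values then reflect only how far these pools differ, which may be technical. Alternatives were a replicate block, leaving out each library, pseudocounts of 0.1 and 1, a minimum of 5 TPM or none, quantile and median-of-ratios scaling, sample weights and no trend.

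The genes and lists were chosen with earlier results of these data known. All 10 channel genes are named. Of each list of ion transport or endosome genes, up to 3 past the threshold with the smallest adjusted p are named, or the 1 with the smallest p where none passed, and for each channel gene past the threshold the 3 nearest in pattern. List names missing from the table were matched through RefSeq synonyms. Figures were drawn with matplotlib 3.10.9.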

Additional observations from a re-analysis of the deposited data

Results flagged for a closer look

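In 3 of 44 groups of 4 libraries, 1 library stood far from the others; about 1 in 20 groups does so by chance. For ClC-a at 3 g, replicate 3 at 9.35 TPM lay apart from 17.5 to 18.3 TPM in the other pools, with a gap of 0.911 of the whole range. For the log2 ratio of ClC-a to ClC-c the gap was 0.846 of the range at 3 g, where replicate 3 was the lowest, and 0.841 in controls, where replicate 4 was the highest.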

How the results depend on the processing

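The 3 calls (Best2, ClC-a and Irk2) were kept with either pseudocount, no filter, a minimum of 5 TPM (which left Best4 and Irk3 untested), median-of-ratios rescaling, no trend and sample weights; ClC-a was lost after quantile normalization. Sample weights, whose estimate stopped short of its convergence tolerance, gave 505 genes higher and 688 lower. With 1 library left out, or with 3 g replicate 2 and a control both left out, 0 to 3 channel genes, 108 to 248 of all genes higher and 50 to 245 lower were called. No channel gene was called lower under any of these settings (limma). The sign of Best3 and Best4, neither of which passed under any setting, was not fixed: their log2 differences ranged from -0.27 to 0.33 and from -0.38 to 0.24 with libraries left out, and were 0.0173 and 0.18 with sample weights, while quantile normalization gave 0.0305 for Best3. The log2 ratio of Best1 to Best4 changed by 0.01 between the groups, and by -0.0027 with a pseudocount of 1. The cause of these changes was not tested. The values gave no sign that shared replicate numbers pair the pools. Deviations of same-numbered pools correlated at -0.516 to 0.0812, and 0 of 4 pools at 3 g matched their own number best. These correlations cannot show whether same-numbered pools shared a batch, which is not known. With the replicate number as a block, 0 channel genes (4 at an unadjusted p under 0.05, limma), 87 genes higher and 60 lower were called. Depth is unknown, so counting error in low genes such as Best4 could not be set apart from the spread between pools.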
